A study of Mus musculus with 16 samples.

Results

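Heme is made in a chain of enzymatic steps that starts and ends in the mitochondrion and passes through the cytosol, and liver uses it mainly for cytochrome P450 enzymes. The first enzyme, Alas1, sets the rate in hepatocytes and is held down by heme itself, while the last, Fech (ferrochelatase), puts iron into protoporphyrin. Heme is opened to biliverdin by heme oxygenase, whose inducible form is Hmox1, and biliverdin reductases reduce the product further. DDC (diethoxycarbonyl dihydrocollidine) is a compound that alkylates P450 heme, yields an inhibitor of the Fech protein and makes porphyrin build up in mouse liver.

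The 9 genes described here were taken by name: the synthesis genes Alas1, Alad, Uros, Urod, Cpox, Ppox and Fech, 7 in number, and the 2 breakdown genes Hmox1 and Blvrb, out of 48158 genes in the deposited data, of which 11790 were expressed enough to test. All 9 passed that filter (at least 1 FPKM in at least 2 libraries), and each had more than 1 FPKM in every library. FPKM count fragments relative to transcript length and library total, a level per length, so genes can be set side by side. A gene's value is the sum over its transcripts.

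The hepatocytes came from FVB mice, DDC-fed for 4 weeks or on normal chow, and were isolated with cycloheximide, which stalls ribosomes on the messages they are reading. Polyadenylated RNA was sequenced from 4 pools of each diet: cytoplasm, monosomes (1 ribosome), light polysomes (2 to 4 ribosomes) and heavy polysomes (over 5 ribosomes). Each of the 8 groups of diet and pool had 2 libraries, 16 in all. The labels name the DDC gradient preparations B and C and the DDC cytoplasmic libraries C2 and D2, and for chow CH1_CH2 and CH3_CH4 in the gradient and CH1 and CH3 in cytoplasm. Nothing in the labels says that libraries came from separate animals, or gives the animals' age, so p-values measure the spread between these libraries.

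Per library, 8313 to 9874 genes reached 1 FPKM, and the FPKM of all genes together came to between 375145 and 1386166, most in the heavy polysome pool. The 4 chow libraries of replicate 1 stood apart: Eif2s3y, a Y-linked gene, was at 0 in them and at 4.20 to 34.5 FPKM in the other 12 libraries, and Xist was at 0.0394 to 2.44 FPKM in them and at 0 elsewhere. Where leaving these libraries out ended a call, the value without them is given. All DDC libraries were among the other 12. The labels do not give the animals' sex, and its part in the diet differences was not tested. The labels call the cells hepatocytes, and 3 to 7 of 20 hepatocyte markers were listed at 0 in a group, among them Serpina1b and Trf in all 8 groups. A listed 0 need not mean an absent message. Apoa1 was at 0 on chow heavy polysomes but averaged 10910 FPKM on chow light polysomes, and the fits counted such a 0 as missing. Macrophage markers were higher in DDC in every pool, and their values stand beside Hmox1.

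Alas1 (chromosome 9, 106233455-106248654, minus strand, GRCm38) was mostly assigned to a transcript with no annotated coding sequence, so the stretch that separates its transcripts is shown. The processed transcript, of 10 exons, with its first exon at chr9:106243555-106243634, held 80.6% of the summed Alas1 FPKM over the 16 libraries. The main coding transcript, of 11 exons with the first at chr9:106247785-106247856, held 16.5%. At the start of one shared exon, the processed transcript keeps 3 bases that the coding one lacks (exon chr9:106238075-106238239 in the processed transcript, 165 bases, against chr9:106238075-106238236 in the coding transcript, 162 bases). The capitals mark those bases, read from GENCODE M21 on GRCm38, minus strand, across the junction.
Alas1 processed transcript: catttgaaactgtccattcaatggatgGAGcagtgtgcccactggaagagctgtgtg
Alas1 coding transcript: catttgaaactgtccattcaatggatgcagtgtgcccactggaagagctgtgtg

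Blvrb (chromosome 7, 27447978-27466144, plus strand) also split between coding transcripts with different starts, and the diet difference on monosomes was assigned to one of them. The transcript with the internal start, at chr7:27452418, held 63.1% of the summed Blvrb FPKM, and the one with the upstream start, at chr7:27447978, held 35.6%. Their RefSeq start windows (GRCm38.p6, plus strand, 250 bases before and 50 from the start) are chr7:27447728-27448027 for the upstream start and chr7:27452168-27452467 for the internal start. The capital marks the first transcribed base.
Blvrb upstream start: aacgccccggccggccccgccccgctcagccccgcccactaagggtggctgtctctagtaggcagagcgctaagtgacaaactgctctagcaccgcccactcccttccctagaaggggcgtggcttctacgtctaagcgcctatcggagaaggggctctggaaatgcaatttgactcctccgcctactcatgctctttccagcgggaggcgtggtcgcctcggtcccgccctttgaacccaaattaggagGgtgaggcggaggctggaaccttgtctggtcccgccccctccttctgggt
Blvrb internal start: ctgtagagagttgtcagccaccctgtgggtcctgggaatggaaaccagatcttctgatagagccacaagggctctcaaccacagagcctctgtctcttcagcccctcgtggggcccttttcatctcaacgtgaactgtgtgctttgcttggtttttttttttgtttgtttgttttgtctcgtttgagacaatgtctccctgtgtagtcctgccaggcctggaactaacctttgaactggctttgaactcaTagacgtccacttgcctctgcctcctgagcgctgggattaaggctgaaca

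RefSeq gave 11 such windows for 7 of the 9 genes. Fech and Hmox1 had no window in the sources used here, so neither was searched for any motif. Both strands were searched for 4 motifs. TGACNNNGC, the antioxidant response element, was held by 12.4% of all 32851 windows and was in none of the 11. The TATA box, searched as TATAAA, was held by 13.6% of all windows and also in none of the 11. An E-box, CACGTG, held by 7.15% of all windows, was in both windows of Alad, 1 of the 2 of Uros and that of Urod. GCGCATGCGC, the palindrome bound by NRF1, held by 0.971%, was in both overlapping windows of Alas1. Of these, the one over the start of the coding transcript (chr9:106247681-106247980, minus strand) is given with the palindrome in capitals. It was set on another start, from RefSeq, and holds that transcript's whole first exon (chr9:106247785-106247856).
Alas1 start window: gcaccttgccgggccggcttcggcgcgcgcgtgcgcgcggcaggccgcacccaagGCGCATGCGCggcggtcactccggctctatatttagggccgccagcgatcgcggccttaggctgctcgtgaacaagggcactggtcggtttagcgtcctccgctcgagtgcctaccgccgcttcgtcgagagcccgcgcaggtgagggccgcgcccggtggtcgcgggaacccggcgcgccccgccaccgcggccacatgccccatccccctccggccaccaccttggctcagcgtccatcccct

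Within a group, Alas1, Alad and Blvrb had the highest levels of the 9 genes. In cytoplasm Alas1, Alad and Blvrb averaged 187.7, 186.3 and 140.5 FPKM in DDC, against 202.0, 167.2 and 128.8 FPKM in chow, and neighbours in that order overlapped between libraries in both diets. Hmox1 came next in DDC cytoplasm at a mean of 76.5 FPKM, while in chow cytoplasm, at 8.24 FPKM, it lay under all but Uros and Ppox. Uros and Ppox were lowest in cytoplasm, at 5.57 and 5.28 FPKM in DDC and 6.13 and 5.02 FPKM in chow, and overlapped.

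The question for each pool was which of these messages differed with the diet. DDC was compared with chow in each pool by limma on log2(FPKM + 1), with p-values adjusted (Benjamini-Hochberg) over all genes tested and a call at an adjusted p under 0.05. Changes are on that log2 scale, which understates those of low genes. In cytoplasm 2 of 9 genes were called, 1 higher and 1 lower in DDC, where 22.4% of all genes tested were called (12.7% higher, 9.68% lower). On monosomes 6 of 9 were called, 3 higher and 3 lower, against 37% of all genes (21% higher, 15.9% lower). On light polysomes 4 of 9 were called, 2 higher and 2 lower, against 30.1% (16.6% higher, 13.5% lower). On heavy polysomes 2 of 9 were called, 1 higher and 1 lower, against 24.8% (13.9% higher, 10.9% lower). The median change of the 9 genes was -0.10 in cytoplasm, -0.19 on monosomes, -0.47 on light polysomes and -0.45 on heavy polysomes, and that of all genes tested lay between 0.01 and 0.04. Fewer cells of a type and less RNA per cell cannot be told apart in these bulk samples.

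**Figure D1:**
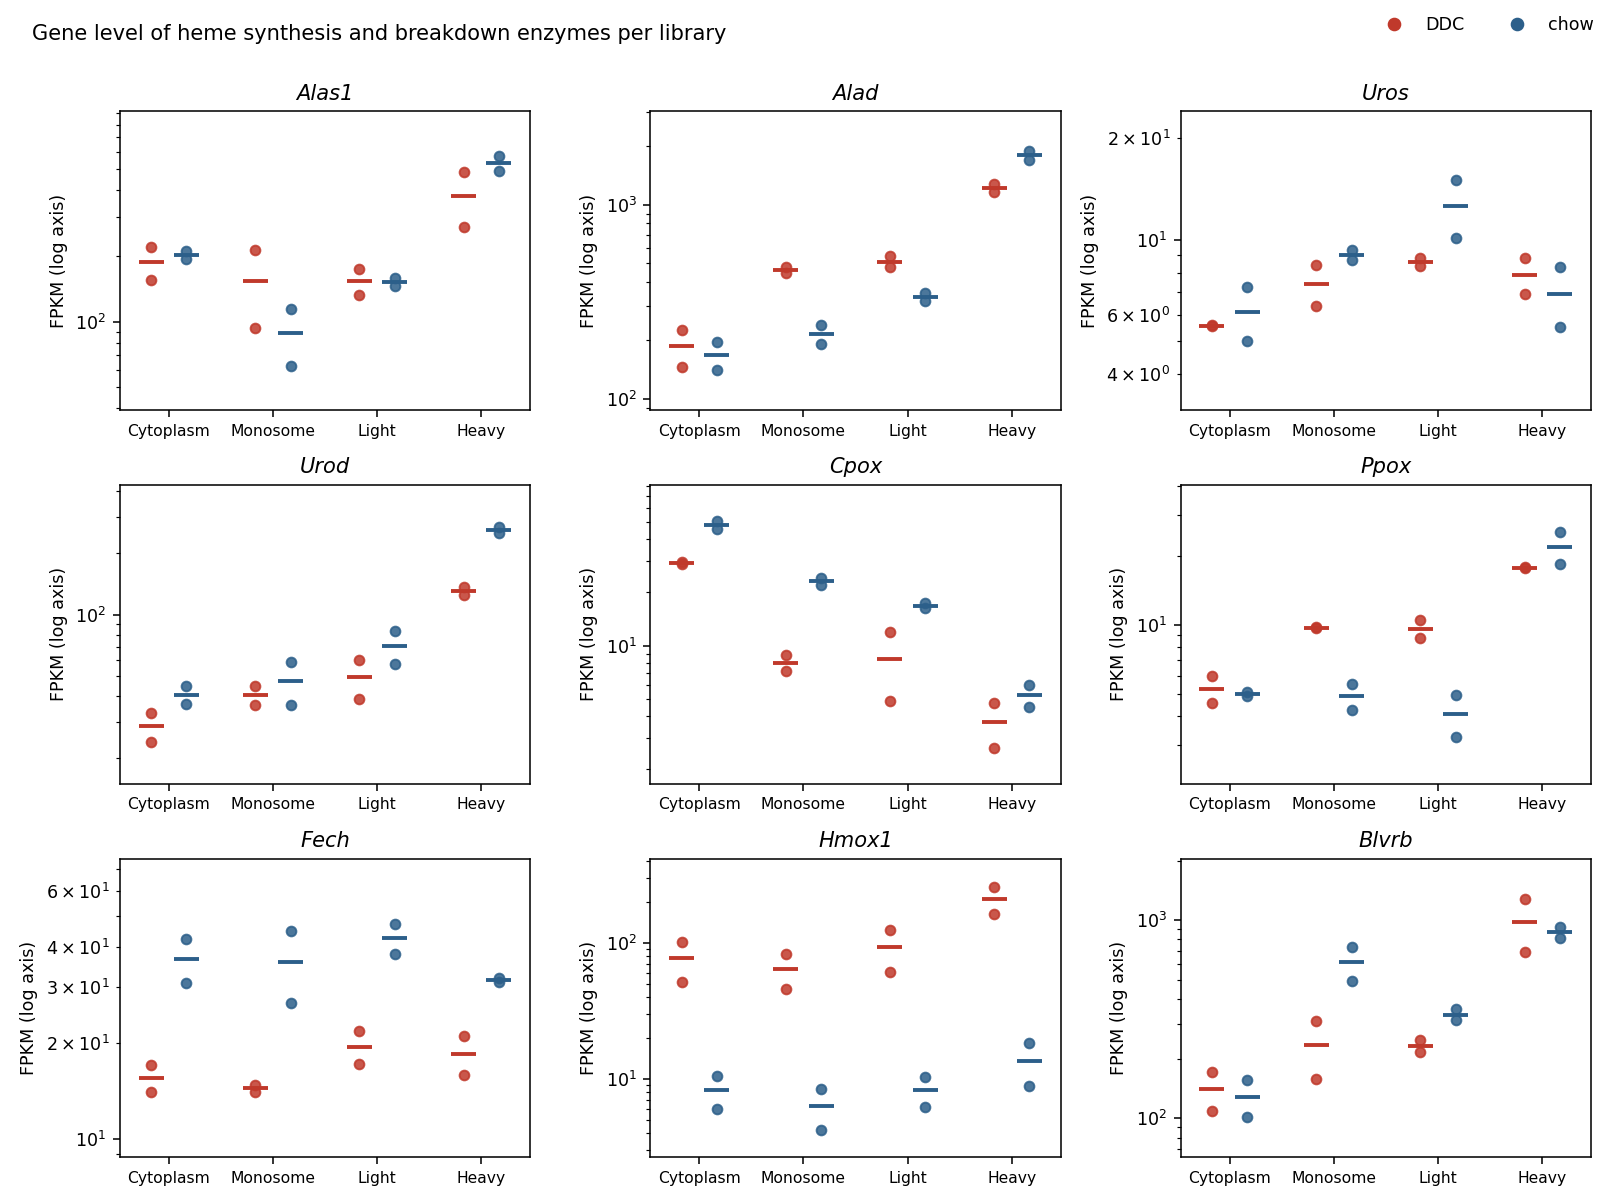
FPKM of each of the 9 genes (log axis, scale set per gene) in cytoplasm, monosomes, light polysomes and heavy polysomes, DDC left of chow; points are libraries and bars are means of 2 libraries. Hmox1 lies above chow and Fech below chow in both DDC libraries of every pool, while Alad and Ppox lie above chow on monosomes and light polysomes only.

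Alas1, the first and rate-setting step, was not called in any pool with all libraries. It had 219.7 and 156 FPKM in DDC cytoplasm, against 193 and 211 FPKM in chow, and the diets overlapped. On monosomes it had 213 and 93.4 FPKM in DDC and 62.8 and 114 FPKM in chow, with DDC replicate 1 above every other monosome library. On heavy polysomes both DDC libraries, at 482 and 269.8 FPKM, were under both chow libraries, at 575 and 489.6 FPKM. The changes were -0.13 ± 0.41 (SE, n = 2 per diet) in cytoplasm, 0.73 ± 0.41 on monosomes, 0.01 ± 0.41 on light polysomes and -0.55 ± 0.41 on heavy polysomes (limma adjusted p = 0.872, 0.182, 0.994 and 0.361). Without DDC monosome replicate 2, Alas1 was called higher on DDC monosomes (adjusted p = 0.0392).

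On monosomes the coding transcript of Alas1 differed with the diet. It had 48.9 and 26.7 FPKM in DDC monosomes, against 4.41 and 15.3 FPKM in chow monosomes, without overlap, whereas the processed transcript had 155 and 62.8 FPKM in DDC and 51.0 and 91.1 FPKM in chow. With transcripts as the features, a fit added after the data were seen, the coding Alas1 transcript rose by 1.98 ± 0.52 (SE, limma adjusted p = 0.0204) on monosomes, where 22.7% of all transcripts were called, and the processed one changed by 0.53 ± 0.49 (adjusted p = 0.482). The call for the coding Alas1 transcript ended without the chow libraries of replicate 1 (change 1.19, adjusted p = 0.142), without CHOW monosome replicate 1 alone (0.124) and without DDC monosome replicate 1 (0.119). Summing protein-coding transcripts only, Alas1 was 1.30 higher on DDC monosomes (adjusted p = 0.0239). How the authors' software divided reads between these transcripts was not tested.

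Alad, which joins the product of Alas1 into porphobilinogen in the cytosol, overlapped between diets in cytoplasm, rose on monosomes and was lower, without a call, on heavy polysomes. Cytoplasm had 227 and 146 FPKM in DDC and 139.7 and 195 FPKM in chow. Monosomes had 442 and 477 FPKM in DDC, against 191 and 241 FPKM in chow, about 2.13 times as much, and Alad rose there by 1.10 ± 0.26 (SE, limma adjusted p = 0.00595). Light polysomes had 474 and 544 FPKM in DDC and 318 and 349 FPKM in chow, without overlap (0.61 ± 0.26, adjusted p = 0.0928). Heavy polysomes had 1271 and 1157 FPKM in DDC, below the 1891 and 1696 FPKM of chow (-0.56 ± 0.26, adjusted p = 0.134). The monosome call ended without the chow libraries of replicate 1 (Alad change 0.93, adjusted p = 0.107), and the light polysome difference was called for Alad with libraries scaled to the same total (adjusted p = 0.00474) and after quantile normalization (0.00234).

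Uros, which closes the ring of uroporphyrinogen, stayed between 5.01 and 15.0 FPKM in all 16 libraries and was not called with the diet in any pool. Its changes ran between -0.47 on light polysomes, at 8.39 and 8.85 FPKM in DDC and 15.0 and 10.1 FPKM in chow, and 0.18 on heavy polysomes, at 8.84 and 6.90 FPKM in DDC and 8.30 and 5.51 FPKM in chow. Uros shares 740 bases with Bccip on the opposite strand, which reached 139.3 FPKM, and whether the counting used strand is not given in the sources used here.

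Urod, the decarboxylase that acts next, fell on heavy polysomes. Both DDC libraries there, at 137 and 125 FPKM, lay under both chow libraries, at 269 and 249.9 FPKM, with a ratio of means of 0.505 (-0.98 ± 0.30, SE, limma adjusted p = 0.0327). In cytoplasm Urod had 33.3 and 24.0 FPKM in DDC and 36.8 and 44.9 FPKM in chow, also without overlap but not called (-0.51 ± 0.30, adjusted p = 0.262). On monosomes (44.9 and 36.2 FPKM in DDC, 36.4 and 58.7 FPKM in chow) and light polysomes the diets overlapped. In these 2 pools a transcript that keeps an intron held 8.50% to 39.4% of the Urod FPKM of a library. The main coding transcript alone had 30.7 and 35.6 FPKM in DDC light polysomes and 45.2 and 36.9 FPKM in chow, without overlap. It was not tested by itself. The heavy polysome call ended when any one of the 4 libraries was left out (adjusted p = 0.0735 to 0.131), without the chow libraries of replicate 1 (0.140), and for Urod under 5 other settings, up to 0.319 with libraries scaled to the same total.

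Cpox, the coproporphyrinogen oxidase of the mitochondrial intermembrane space, fell on monosomes and light polysomes. Monosomes had 8.83 and 7.16 FPKM in DDC, against 24.1 and 22.1 FPKM in chow, a ratio of means of 0.346 (-1.43 ± 0.33, SE, limma adjusted p = 0.00590). Light polysomes had 11.9 and 4.86 FPKM in DDC and 16.3 and 17.3 FPKM in chow (-1.03 ± 0.33, adjusted p = 0.0346). Cytoplasm showed the same order, with 29.0 and 29.9 FPKM in DDC and 50.6 and 45.8 FPKM in chow, below the threshold for a call (-0.69 ± 0.33, adjusted p = 0.162). On heavy polysomes, where Cpox was lowest, the diets overlapped at 2.64 and 4.72 FPKM in DDC and 4.51 and 5.998 FPKM in chow. Without the chow libraries of replicate 1 neither Cpox call held (adjusted p = 0.0799 on monosomes, 0.183 on light polysomes). The light polysome call of Cpox also ended without DDC light polysome replicate 2 (0.297), without either chow light polysome library (0.110 and 0.140), with libraries scaled to the same total (0.197), with no filter (0.0574) and in a fit of the compared groups alone (0.129). Its cytoplasmic fall was called with array weights (0.0144) and in a fit of the compared groups alone (0.0263).

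Ppox, which oxidizes protoporphyrinogen to protoporphyrin, rose on monosomes and light polysomes. Monosomes had 9.66 and 9.81 FPKM in DDC and 5.52 and 4.25 FPKM in chow (0.88 ± 0.24, SE, limma adjusted p = 0.0143), and light polysomes 8.79 and 10.5 FPKM in DDC and 4.94 and 3.26 FPKM in chow (1.07 ± 0.24, adjusted p = 0.00590). Cytoplasm was level, at 5.99 and 4.58 FPKM in DDC and 5.13 and 4.91 FPKM in chow, and heavy polysomes had 17.7 and 17.8 FPKM in DDC, just under the 25.3 and 18.3 FPKM of chow. Neither was called (Ppox changes 0.05 and -0.27, adjusted p = 0.913 and 0.467). Leaving out chow replicate 2 ended the Ppox calls on monosomes (adjusted p = 0.0971) and on light polysomes (0.0727), and the monosome call also ended without DDC monosome replicate 2 (0.0561), with array weights (0.0583) and in a fit of the compared groups alone (0.09998). Ppox overlaps B4galt3 on the opposite strand over 907 bases, and B4galt3 reached 24.2 FPKM.

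Fech (chromosome 18, 64452914-64490251, minus strand), the enzyme whose protein DDC blocks, was lower in DDC in every pool. Cytoplasm had 14.0 and 17.1 FPKM in DDC, against 30.8 and 42.2 FPKM in chow, a ratio of means of 0.426. Monosomes had 14.8 and 14.0 FPKM in DDC and 26.7 and 44.9 FPKM in chow. Light polysomes had 21.7 and 17.2 FPKM in DDC and 38.1 and 47.1 FPKM in chow, and heavy polysomes 21.04 and 15.9 FPKM in DDC and 30.9 and 32.0 FPKM in chow. In no pool did the diets overlap.

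Fech fell by 1.17 ± 0.28 (SE, limma adjusted p = 0.0106) in cytoplasm, by 1.21 ± 0.28 (0.00514) on monosomes and by 1.09 ± 0.28 (0.0109) on light polysomes. On heavy polysomes its change of -0.75 ± 0.28 was not called (adjusted p = 0.0670), but was with the preparation as a block within diet (0.0168), a block that spans the chow pools and the DDC gradient pools and leaves DDC cytoplasm out. The difference between the Fech change on heavy polysomes and that in cytoplasm was 0.42 ± 0.39 and not called (adjusted p = 0.721). The called falls held without the chow libraries of replicate 1 (adjusted p = 0.0387, 0.0125 and 0.0383), and each ended when chow replicate 2 of its pool was left out (Fech adjusted p = 0.105, 0.0576 and 0.0894). The Fech calls also ended without DDC cytoplasm replicate 1 (0.0868), on monosomes in a fit of the compared groups alone (0.0751), and on light polysomes without DDC replicate 2 (0.0720) and with libraries scaled to the same total (0.0606).

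Hepatocyte markers moved the same way as Fech in cytoplasm. Of 15 tested, 5 fell and none rose, where 9.68% of all genes were called lower and 12.7% higher. Their median change was -0.76, and those that fell included Cyp2e1 (-4.42), a P450 enzyme that carries heme, Tdo2 (-3.37) and Tat (-1.62). Summed over the 12 of 20 hepatocyte markers above 0 in every group, FPKM came to 6258 to 7206 in DDC cytoplasm and 9988 to 13587 in chow cytoplasm. On heavy polysomes that sum was 7033 to 9124 in DDC and 12459 to 15920 in chow. The sum of all 20 was also lower in DDC cytoplasm (23469 to 37998, chow 45102 to 53676). It was higher in DDC on heavy polysomes (55779.5 to 105620, chow 42747 to 49680) and light polysomes (39888 to 47265.5, chow 30977 to 32593). On heavy polysomes 4 of the 20 were listed at 0 in DDC and 7 in chow. The part of the hepatocyte markers in the Fech result was not tested.

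**Figure D2:**
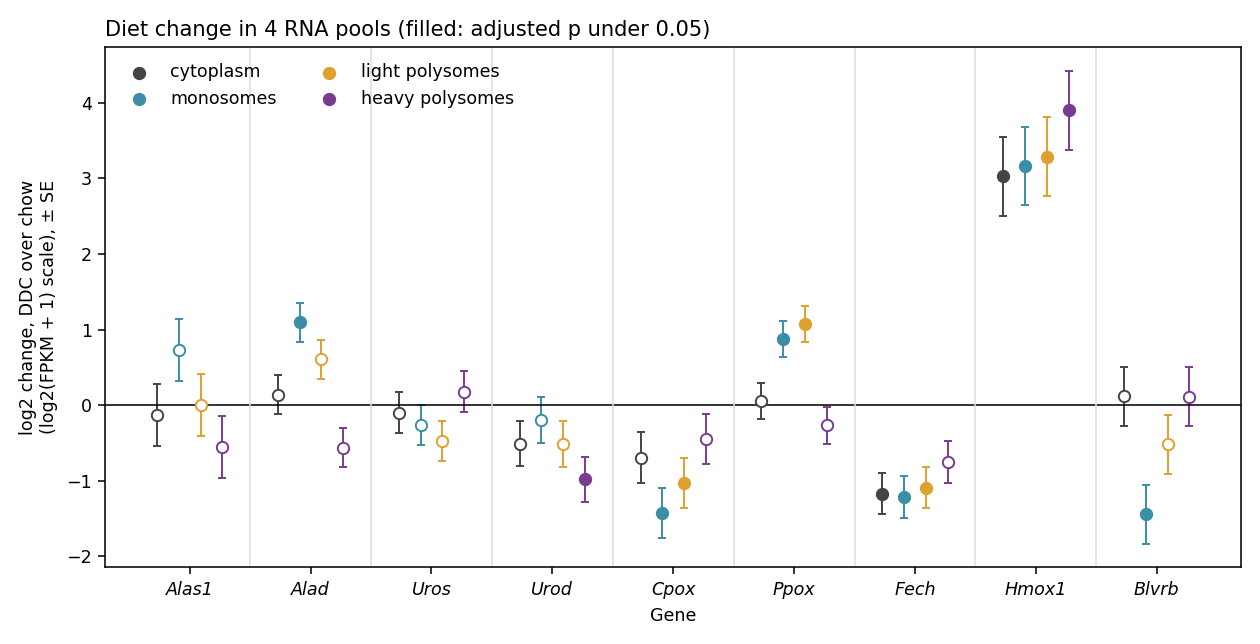
Change of each gene with the diet (DDC over chow, log2(FPKM + 1) scale, points with SE from limma, n = 2 libraries per diet and pool) in the 4 pools; filled points have an adjusted p under 0.05. Hmox1 is called higher in all 4 pools, between 3.03 and 3.90, and Fech lies at -1.21 to -0.75; Cpox and Blvrb fall and Alad and Ppox rise on monosomes, where 6 of the 9 points are filled.

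Hmox1 (chromosome 8, 75093621-75100589, plus strand), the inducible heme oxygenase, rose in all 4 pools and had the largest change of the 9 genes in each. Cytoplasm had 51.1 and 102 FPKM in DDC, against 10.5 and 6.02 FPKM in chow, a ratio of means of 9.28. Monosomes had 45.7 and 83.0 FPKM in DDC and 8.39 and 4.21 FPKM in chow. Light polysomes had 60.5 and 124 FPKM in DDC and 10.2 and 6.19 FPKM in chow, and heavy polysomes 162 and 259 FPKM in DDC and 18.3 and 8.78 FPKM in chow, a ratio of means of 15.5. Every DDC library lay above every chow library, and DDC replicate 2 lay above DDC replicate 1 in all pools.

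The Hmox1 changes were 3.03 ± 0.52 (SE, limma adjusted p = 0.00186) in cytoplasm, 3.16 ± 0.52 (0.000769) on monosomes, 3.29 ± 0.52 (0.000748) on light polysomes and 3.90 ± 0.52 (0.000273) on heavy polysomes. The change on heavy polysomes exceeded that in cytoplasm by 0.87 ± 0.74, which was not called (adjusted p = 0.686). The 4 diet calls of Hmox1 held under every setting run, with adjusted p up to 0.0444.

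Hmox1 is strongly made by macrophages that clear red cells as well as by stressed hepatocytes, and macrophage markers rose with the diet in each pool. Of 19 tested, 14 rose in cytoplasm, 16 on monosomes, 15 on light polysomes and 17 on heavy polysomes, and none fell. Of all genes tested, 12.7%, 21%, 16.6% and 13.9% were called higher in these pools, in that order. The summed FPKM of the 20 markers was 824.3 to 1285 in DDC cytoplasm and 119.6 to 156.6 in chow cytoplasm, and 5764 to 6970.5 in DDC heavy polysomes and 335.2 to 550.9 in chow heavy polysomes. Cd68, a lysosomal marker of macrophages, changed by 3.81 in cytoplasm and 5.41 on heavy polysomes, and Clec4f, a marker of resident Kupffer cells, by 1.44 (adjusted p = 0.0554) and 2.20 (adjusted p = 0.00661). No macrophage marker was at 0 in a DDC group, and in chow Itgam was at 0 on monosomes and, with Cd163, on heavy polysomes. Their part in the Hmox1 result was not tested.

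By a fixed rule, the 3 tested genes whose group means were most like those of Hmox1 over the 8 groups were Cd5l, a macrophage-secreted protein and one of the markers above, with a Pearson r of 0.995, and the cell division genes Ube2c (0.994) and Aurkb (0.994). For Fech they were Hibadh (0.993), an enzyme of valine breakdown, Bnip3 (0.987) and Sephs2 (0.981), and for Alas1 Ciao1 (0.990), Cpsf1 (0.988) and Heatr1 (0.981). The 8 means share libraries and scaling, and many genes follow the diet or the pool, so these values only describe likeness.

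Blvrb, which reduces biliverdin and flavins in the cytosol, fell on monosomes. Monosomes had 308 and 158 FPKM in DDC, against 494 and 732 FPKM in chow, a ratio of means of 0.380 (-1.44 ± 0.39, SE, limma adjusted p = 0.0130). Cytoplasm overlapped, at 172 and 109 FPKM in DDC and 102 and 156 FPKM in chow, as did heavy polysomes, at 1276 and 691 FPKM in DDC and 814 and 926 FPKM in chow. Light polysomes had 249 and 217 FPKM in DDC, below 313 and 354 FPKM in chow, but the difference was not called (-0.52 ± 0.39, adjusted p = 0.343). The Blvrb call on monosomes ended in a fit of the compared groups alone (adjusted p = 0.0860), without the chow libraries of replicate 1 (0.0576), without CHOW monosome replicate 2 (0.102) and without DDC monosome replicate 2 (0.121).

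As the authors' software divided the reads, the Blvrb difference on monosomes lay with the transcript that starts inside the gene. That division was not tested. The internal-start transcript had 181 and 121 FPKM in DDC monosomes and 431 and 689 FPKM in chow monosomes, and fell by 1.87 ± 0.44 (SE, limma adjusted p = 0.0121 with transcripts as features). The upstream-start transcript had 125 and 32.5 FPKM in DDC and 49.0 and 24.8 FPKM in chow, with overlap (0.86 ± 0.53, adjusted p = 0.287, and 0.0208 without DDC monosome replicate 2). On monosomes the internal-start transcript held 58.7% and 76.7% of the gene's FPKM in DDC and 87.2% and 94.1% in chow, and in cytoplasm 63.0% and 58.7% in DDC and 57.5% and 56.6% in chow. Its call ended without the chow libraries of replicate 1 (0.0593), without CHOW monosome replicate 2 (0.0899) and without DDC monosome replicate 2 (0.0785).

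**Figure D3:**
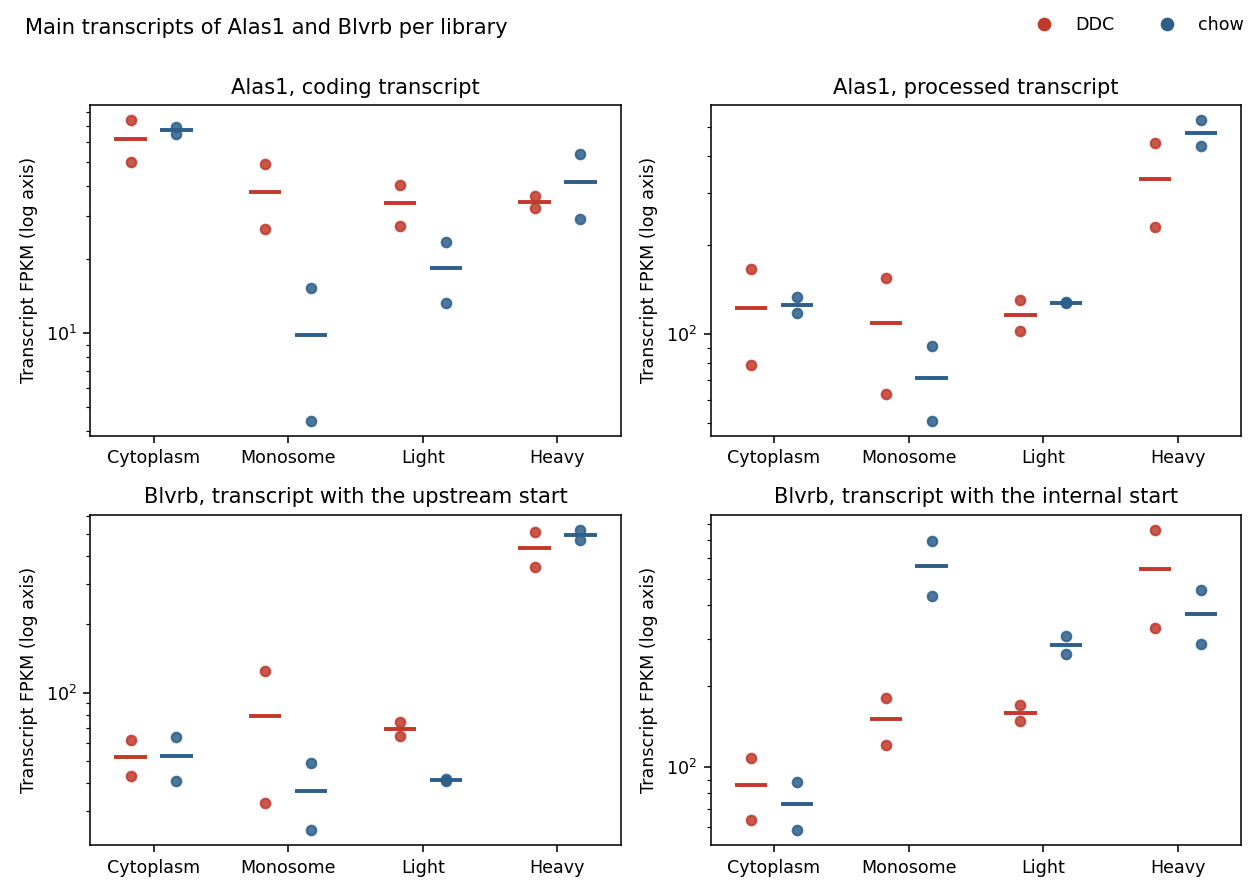
FPKM per library (log axes) of the coding and processed transcripts of Alas1 and of the coding Blvrb transcripts with upstream and internal starts, in the 4 pools, DDC left of chow; bars are means of 2 libraries. On monosomes the coding Alas1 transcript lies higher in DDC (48.9 and 26.7 FPKM) than in chow (4.41 and 15.3 FPKM), and the internal-start Blvrb transcript lower in DDC (181 and 121 FPKM) than in chow (431 and 689 FPKM), while the cytoplasmic values of all 4 transcripts overlap between diets.

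The next question was where each message sat on the gradient. A message on many ribosomes is read by many at once, so heavy polysomes were compared with monosomes within each diet. Since FPKM were scaled between libraries, the ratio is relative to other messages and is no share of a gene's molecules. In DDC 7 of 9 genes were called, 6 higher and 1 lower on heavy polysomes, where 32.7% of all genes tested were called (18.2% higher, 14.5% lower). In chow 5 of 9 were called, 4 higher and 1 lower, where 44.8% of all genes were (23.7% higher, 21.1% lower).

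With all transcripts summed, Alas1, Alad, Urod and Ppox were higher on heavy polysomes than on monosomes in both diets. For Alas1 in DDC the difference was absent (0.00069) with protein-coding transcripts only. Alad had a heavy to monosome FPKM ratio of 2.88 and 2.42 in the DDC preparations and 9.92 and 7.04 in the chow preparations. Its log2 difference was 1.40 ± 0.26 in DDC and 3.06 ± 0.26 in chow (SE, limma adjusted p = 0.00168 and 8.49e-06). Alas1 had ratios of 2.27 and 2.89 in DDC and 9.14 and 4.28 in chow (1.35 ± 0.41 and 2.63 ± 0.41, adjusted p = 0.0246 and 0.000318). Without the chow libraries of replicate 1 both Alas1 calls ended (adjusted p = 0.0718 in DDC and 0.0576 in chow). In DDC the Alas1 call also ended without DDC monosome replicate 2 (0.209), without DDC heavy polysome replicate 1 (0.178), with libraries scaled to the same total (0.154), after quantile normalization (0.344), with array weights (0.0534) and in a fit of the compared groups alone (0.163). The Alad call in DDC ended after quantile normalization (0.0570) and in a fit of the compared groups alone (0.0638). For both genes each chow preparation lay above each DDC preparation.

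Urod had ratios of 3.06 and 3.44 in DDC and 7.38 and 4.25 in chow (1.67 ± 0.30 and 2.46 ± 0.30, limma adjusted p = 0.00154 and 6.66e-05). Ppox had 1.83 and 1.81 in DDC and 4.59 and 4.31 in chow (0.81 ± 0.24 and 1.95 ± 0.24, adjusted p = 0.0236 and 7.14e-05). The Ppox call in DDC ended when any one of its 4 libraries was left out (adjusted p = 0.0716 to 0.0782), with libraries scaled to the same total (0.461), after quantile normalization (0.0827), with array weights (0.0934) and in a fit of the compared groups alone (0.108). With protein-coding transcripts only, which leaves out the processed one, the Alas1 difference in DDC was 0.00069 (adjusted p = 1).

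Cpox ran the other way, lower on heavy polysomes than on monosomes in both diets, with ratios of 0.299 and 0.659 in DDC and 0.187 and 0.271 in chow (-0.97 ± 0.33 and -1.96 ± 0.33, limma adjusted p = 0.0416 and 0.000588). Without the chow libraries of replicate 1 both Cpox calls ended (adjusted p = 0.113 in DDC and 0.0635 in chow). In DDC the Cpox call also ended without heavy polysome replicate 1 (0.253), without monosome replicate 1 (0.167) or 2 (0.0755), and under 5 other settings (0.0506 to 0.144). In DDC it averaged 3.68 FPKM on heavy polysomes and 29.4 FPKM in cytoplasm, and in chow 5.26 FPKM on heavy polysomes and 48.2 FPKM in cytoplasm.

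Both breakdown genes were called higher on heavy polysomes in DDC. Hmox1 had ratios of 3.53 and 3.11 in DDC (1.71 ± 0.52, SE, limma adjusted p = 0.0247) and 2.19 and 2.08 in chow (0.98 ± 0.52, adjusted p = 0.151, and 0.0119 with the preparation as a block). Blvrb had ratios of 4.14 and 4.37 in DDC (2.08 ± 0.39, adjusted p = 0.00193) and 1.64 and 1.26 in chow (0.53 ± 0.39, adjusted p = 0.301). In chow the Blvrb difference turned to -0.27 with libraries scaled to the same total and to -0.30 after quantile normalization. For Hmox1 the call in DDC ended when monosome replicate 1 (adjusted p = 0.159) or heavy polysome replicate 2 (0.137) of DDC was left out, and under 5 other settings (0.0542 to 0.169). For Blvrb it ended in a fit of the compared groups alone (0.0722). Fech and Uros were not called in either diet, with ratios of 1.42 and 1.13 for Fech in DDC and 1.16 and 0.713 in chow. With libraries scaled to the same total, which moved the median of all genes by -0.37, both were called lower on heavy polysomes in chow (Uros -1.03, adjusted p = 0.00904, against -0.36, and Fech -0.90, adjusted p = 0.0241, against -0.14).

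Whether this placement differed between the diets was tested as an interaction, for which 1.9% of all genes were called. Alad was called, with a diet difference of -1.66 ± 0.36 (SE, limma adjusted p = 0.0426), that is, less weight on heavy polysomes in DDC. This call ended when any one of the 8 libraries was left out (adjusted p = 0.0502 to 0.0864), without the chow libraries of replicate 1 (Alad -1.41, adjusted p = 0.245), with array weights (0.225) and in a fit of the compared groups alone (0.187). The labels pair heavy polysome and monosome libraries of a preparation. With that pairing as a block within diet, Alad kept its call (adjusted p = 0.0234) and Ppox (-1.14, adjusted p = 0.0401) and Blvrb (1.56, adjusted p = 0.0347) joined it, so 3 of 9 were called, where 7.6% of all genes tested were called with that block.

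**Figure D4:**
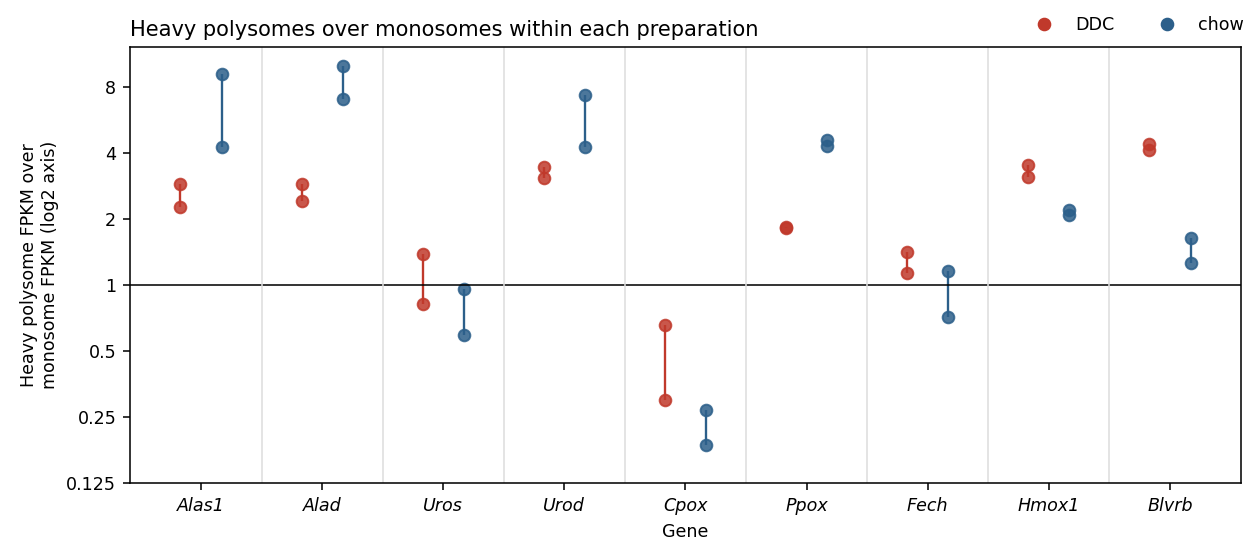
Ratio of heavy polysome FPKM to monosome FPKM (log2 axis) for each of the 9 genes in the 2 preparations of each diet, DDC left of chow; lines join the preparations and the horizontal line marks equal levels. Alas1, Alad, Urod and Ppox have lower ratios in both DDC preparations than in both chow preparations, and Cpox, Blvrb and Hmox1 have higher ratios in both DDC preparations. Of these diet differences Alad alone was called without the block. With 2 preparations per diet, ratios can separate by order alone, and the share of all genes that separate was not counted.

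The diet change on heavy polysomes was also set against that in cytoplasm. None of the 9 genes was called by limma in this interaction, where 0.102% of all genes were, and none had an unadjusted p under 0.05. The largest differences were 0.87 for Hmox1 and -0.70 ± 0.36 for Alad (adjusted p = 0.686 and 0.487).

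Over the 8 group means, Alad and Ppox went together (Pearson r = 0.939), as did Alad and Urod (0.895), while Alad and Cpox (-0.928) and Fech and Hmox1 (-0.891) ran against each other. These values describe means that share libraries and scaling. Alas1 correlated with Alad at 0.758 and with Fech at -0.0531, and Uros with no other member beyond 0.447 in size.

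Of the other enzymes of the pathway, a list written with earlier results of these data known, Hmox2, Blvra and Alas2 were not called with the diet in any pool. Hmox2, the constitutive heme oxygenase, had 26.9 and 24.7 FPKM in DDC cytoplasm and 25.8 and 34.5 FPKM in chow cytoplasm (-0.21, limma adjusted p = 0.541). Blvra, the main adult biliverdin reductase, had 7.45 and 8.36 FPKM in DDC cytoplasm and 6.69 and 8.62 FPKM in chow cytoplasm (0.05, adjusted p = 0.926). The diets overlapped there for both genes.

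Alas2, the red cell form of the first enzyme, was high in chow replicate 2 alone. On heavy polysomes it had 4.05 and 3.11 FPKM in DDC and 4.51 and 55.1 FPKM in chow, and in cytoplasm 1.65 and 1.03 FPKM in DDC and 0.911 and 6.74 FPKM in chow. Of 8 red cell markers tested, none rose and 1 fell (Car1, -3.25) in cytoplasm, where 12.7% of all genes were called higher and 9.68% lower. Hbb-bs was not called there (1.37, limma adjusted p = 0.422). The summed red cell markers were 13.9 to 15.8 FPKM in DDC cytoplasm and 12.9 to 27.6 FPKM in chow cytoplasm.

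Of 32 genes of heme transport and regulation, 29 were tested with the diet. In cytoplasm 2 rose and 3 fell, where 22.4% of all genes were called, with a median of -0.07. Slc48a1, which moves heme out of lysosomes, had 69.4 and 57.2 FPKM in DDC and 13.9 and 14.0 FPKM in chow (2.10, limma adjusted p = 0.000196). Nfe2l2 (NRF2), a regulator of the oxidative stress response, had 45.1 and 55.2 FPKM in DDC and 16.9 and 17.3 FPKM in chow (1.49, adjusted p = 0.0279). Both were higher in DDC in each library of that pool.

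The genes that fell in cytoplasm were Nr1i3 (-2.73, limma adjusted p = 0.0225), the xenobiotic receptor CAR, Abcb10 (-1.05, 0.0280), a mitochondrial transporter used in heme synthesis, and Hebp1 (-1.56, 0.00336), a heme-binding protein. Nr1i3 had 11.9 and 8.42 FPKM in DDC cytoplasm and 69.7 and 74.6 FPKM in chow cytoplasm. On heavy polysomes 7 of 29 were called, where 24.8% of all genes were: Slc48a1 (1.19) and Nfe2l2 (1.35) rose, and 5 genes fell, Abcb6 (-1.73), a porphyrin transporter, Slc25a38 (-1.63), which brings glycine to the mitochondrion for the first step, Glrx5 (-1.15), of iron-sulfur assembly, Hebp1 (-1.11) and Slc46a1 (-0.97). Slc25a38 had 8.13 and 4.76 FPKM in DDC heavy polysomes, against 24.4 and 18.8 FPKM in chow heavy polysomes (adjusted p = 0.000513).

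Of 22 targets of NRF2, which also acts on Hmox1, 21 were tested in cytoplasm, and 10 rose and 1 fell, where 12.7% of all genes were called higher and 9.68% lower. Their median change was 0.79, beside 0.01 over all genes tested. On heavy polysomes 8 of 20 rose and 1 fell, where 13.9% of all genes were called higher and 10.9% lower, with a median of 0.78. Those with the lowest p in cytoplasm were Gsta1 (5.66) and Gstm3 (7.31), glutathione transferases, and Srxn1 (3.40), which repairs peroxiredoxins.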

How the data were processed

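Polyadenylated RNA of hepatocytes was measured in 16 libraries. Per the submitters' processing notes, the tools were Cuffnorm, Picard 1.119, STAR 2.4.2a, Trimmomatic and bcl2fastq 2.17.1.14; options of Cuffnorm and strand settings are not given in the sources used here, and libraries were made with a stranded mRNA kit, per the labels. Each transcript has an FPKM, which the authors had scaled between libraries with Cuffnorm. Although the deposited table is named for counts, these values are not counts, so no count test was run, depth is unknown, and no counting interval can be given.

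Transcripts were joined to GENCODE M21 (GRCm38): of 117592, 25 listed at 0 throughout were left out, 116728 matched, and 839 did not (at most 0.509% of a library's FPKM). FPKM were summed per gene. Values were log2(FPKM + 1) of the 11790 genes that reached 1 FPKM in 2 or more libraries. A gene at 0 in both libraries of a group but at 100 FPKM or more elsewhere counted as missing there (49 genes, none of the 9). limma 3.58.1 in R 4.3.3 fitted 8 group means with a variance trend (8 residual and 3.905 prior degrees of freedom). It was also run on simulated data with 200 changed genes among the 11790. There limma called 16% of 2-fold changes in cytoplasm and 22% on heavy polysomes, with 7 and 5 false calls. It called 93% and 95% of 4-fold changes there. Far more genes were called in the real data, which moves the threshold of the adjustment, so these shares do not carry over. A gene that was not called may still differ 2-fold. Python 3.11 tools made summaries and figures. Coordinates and Alas1 sequence are from GENCODE, start windows from RefSeq.

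By the labels the chow pools, and the DDC gradient pools, share preparations within a diet, and DDC cytoplasm, named otherwise, was left out of the block within diet: differences between replicates correlated at 0.357 to 0.749 between chow pools and 0.305 to 0.365 among the gradient pools of DDC, but at -0.0499 to 0.161 between these and DDC cytoplasm and at -0.0938 to 0.0702 between diets, so numbers do not pair the diets. Alternatives were other pseudocounts (0.1 and 5), filters, scalings, variance models, replicate blocks, coding transcripts only, and libraries left out. Named genes were the 9 members, further enzymes of the pathway (1 is not reported here), the transport and regulation genes called in cytoplasm or on heavy polysomes, the 3 lowest p in cytoplasm of other lists, and set markers. Members and lists were chosen with earlier results of these data known. Ductal, stellate and endothelial markers were also counted.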

Additional observations from a re-analysis of the deposited data

Results flagged for a closer look

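Alad was singled out because its placement on the gradient differed between the diets: the heavy polysome over monosome difference was 1.40 in DDC and 3.06 in chow on the log2(FPKM + 1) scale, a diet difference of -1.66 ± 0.36 (SE, limma adjusted p = 0.0426). Both DDC preparations had lower Alad ratios (2.88 and 2.42) than both chow preparations (9.92 and 7.04). The call ended when any one of the 8 libraries was left out, and its cause was not tested.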

How the results depend on the processing

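Leaving out 1 library at a time, the number of the 9 genes called with the diet was 1 to 2 in cytoplasm, 3 to 6 on monosomes, 1 to 4 on light polysomes and 1 to 1 on heavy polysomes, that of heavy polysomes against monosomes 4 to 5 in DDC and 5 to 5 in chow, and that of both interactions 0 to 0. The heavy polysome diet count of 2 was 1 with no filter, equal totals, quantile normalization, array weights, the compared groups alone, or without the chow libraries of replicate 1. The DDC count of heavy polysomes against monosomes (7) was 4 with equal totals, 2 after quantile normalization, 3 with array weights and 1 with the compared groups alone. The monosome count (6) was 3 with the compared groups alone and without the chow libraries of replicate 1, which also lowered the chow placement count (5) to 3. The placement interaction count (1) was 0 with array weights, the compared groups alone and without those chow libraries, and 3 with the replicate block within diet. That block added calls for Fech and, in chow placement, Hmox1, as given above, and ended none.

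Uncalled changes turned as follows. With equal totals, which moved the median of all genes by 0.18 in cytoplasm, 0.25 on monosomes, 0.24 on light and 0.29 on heavy polysomes and by -0.37 in both placements, the diet changes were 0.081 for Alas1 and 0.083 for Uros in cytoplasm, 0.0039 for Uros and 0.10 for Urod on monosomes and 0.21 for Ppox on heavy polysomes, placement changes were -0.27 for Blvrb in chow and -0.44 for Uros and -0.24 for Fech in DDC, and the interaction with cytoplasm was 0.29 for Blvrb. After quantile normalization they were 0.11 for Alas1 and -0.0019 for Ppox in cytoplasm, -0.30 for Blvrb in chow placement, -0.0055 for Uros in DDC placement, and 0.050 for Urod and 0.27 for Blvrb in the interaction. With TMM factors they were -0.047 for Ppox in cytoplasm, -0.10 for Alas1 on light polysomes and 0.16 for Blvrb in the interaction. Without the chow libraries of replicate 1 they were -0.10 for Alad, 0.13 for Uros and -0.19 for Blvrb in cytoplasm, -0.055 for Alas1 on light polysomes and 0.21 for Blvrb in the interaction. The processed Alas1 transcript on light polysomes was 0.18 with equal totals. The cause was not tested.

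With 1 library left out, ranges that crossed 0 were, in cytoplasm, -0.37 to 0.12 for Alas1, -0.18 to 0.46 for Alad, -0.33 to 0.13 for Uros, -0.11 to 0.21 for Ppox and -0.21 to 0.45 for Blvrb, on monosomes -0.53 to 0.14 for Urod, -0.12 to 1.17 for the processed Alas1 transcript and -0.10 to 1.81 for the upstream-start Blvrb transcript, on light polysomes -0.19 to 0.21 for Alas1 and -0.32 to 0.026 for its processed transcript, on heavy polysomes -0.077 to 0.44 for Uros and -0.33 to 0.56 for Blvrb, in placement -0.50 to 0.23 for Fech in chow and -0.093 to 0.26 for Uros in DDC, and in the interaction with cytoplasm -0.077 to 0.57 for Cpox and -0.45 to 0.44 for Blvrb. Of 1432 values under alternatives, 1283 kept direction and side of the threshold, 89 lost a call, 13 gained one and 47 turned. With 2 libraries per group an unpaired permutation test cannot pass the threshold, so none is given.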

Other observations

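Markers of other cell types moved with the diet. The shares of all genes tested that were called in cytoplasm were 12.7% higher and 9.68% lower. In cytoplasm 6 of 8 ductal markers tested rose and none fell (Tm4sf4 2.69, Prom1 4.84 and Sox9 1.36 on the log2 scale), with summed FPKM of 342.1 to 455.4 in DDC and 42.1 to 47.3 in chow. Of 13 stellate markers 10 rose and none fell (Timp1 3.20, Col1a1 1.77 and Bgn 2.13), with sums of 178.1 to 201.9 FPKM in DDC and 39.3 to 55.4 FPKM in chow. Of 9 endothelial markers none was called in cytoplasm by limma (Kdr -0.81, Ehd3 -0.89 and Cdh5 0.60), with sums of 41.2 to 60.5 FPKM in DDC and 49.6 to 52.2 FPKM in chow. Lyz2 (3.93) and Laptm5 (2.77), macrophage genes, rose in cytoplasm beside Cd68, while Klf1 and Tfrc of the red cell list were not called there (-1.24 and 0.59). The part of these cells in the heme gene values was not tested.

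Alas2 was at 6.74, 21.9, 21.1 and 55.1 FPKM in chow replicate 2 of cytoplasm, monosomes, light polysomes and heavy polysomes, and at no more than 4.51 FPKM in the other 12 libraries.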
